A study of Mus musculus with 6 samples.

Results

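The 9 genes described here, Apoe, Abca1, Abcg1, Nr1h3, Mylip, Lpl, Lipa, Npc1 and Npc2, handle cholesterol as it enters, crosses and leaves a myeloid cell. They were chosen by gene symbol, and all 9 were found among the 15282 genes of the deposited table. The table sets mouse dendritic cells grown in culture against cells derived from them on a layer of spleen stroma. All cells were wild type and came from bone marrow of C57BL/6 mice, whose age and sex the sources used here do not state. Mature dendritic cells (maDC) were grown over 6 days in IL-4 plus GM-CSF, exposed to bacterial lipopolysaccharide (LPS) for 24 hours and selected with beads against CD11c. The second group (diffDC) was maDC kept on spleen stroma for another 9 days, so both groups share the cytokines, the LPS and the selection. The sources used here do not say whether diffDC were separated from the stroma before RNA was taken. Each group had 3 libraries, but the table holds 1 pooled read number per gene and group, so no difference below has a replicate check and none was tested across libraries.

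Cholesterol reaches macrophages and dendritic cells mostly inside lipoproteins. In the lysosome, the acid lipase encoded by Lipa frees cholesterol from its esters, the soluble protein NPC2 binds it, and the membrane protein NPC1 passes it on to the rest of the cell. Oxysterols made from surplus cholesterol activate the liver X receptors (LXR, encoded by Nr1h3 and Nr1h2), which pair with retinoid X receptors and switch on Abca1, Abcg1, Apoe and Mylip. The ABC transporters load cholesterol onto apolipoproteins, apolipoprotein E carries it away, and the ubiquitin ligase made by Mylip limits the uptake of lipoproteins.

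The read numbers of the pools summed to 69190437 in maDC and 89836110 in diffDC. A gene was called higher or lower in diffDC when its ratio, scaled with TMM factors, was at least 2-fold and its 95% Clopper-Pearson counting interval did not reach equality. Such intervals hold counting error alone. All 9 genes were above 5 CPM in both pools, CPM being reads scaled to a pool total of 1000000, without TMM factors. Of the 9 genes, 2 were called higher (Apoe and Lipa) and 2 lower (Npc2 and Nr1h3), while Abca1, Lpl, Mylip, Abcg1 and Npc1 were not called. Across the table, 23.3% of genes were called higher and 20.9% lower, so the share of the 9 genes called in either direction was near that background. With the library factor inside the authors' deposited log2 ratios, 5 of the 9 were higher and 2 lower, against 32.2% and 15.7% of all genes, and with library totals alone 4 were higher and 2 lower, against 26.8% and 18.4%. The authors' factor raised every log2 ratio by 0.44 and moved the median over the 9957 genes whose mean reached 5 CPM from 0.06 to 0.49.

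Markers of other cell types moved in the same comparison. Of 20 macrophage markers, 14 were higher and 3 lower in diffDC, and their summed level went from 9613 to 37063 CPM. Of 22 fibroblast and reticular stroma markers measured, 15 were higher and 3 lower, with a sum of 1577 CPM in maDC and 5644 in diffDC. Of these 22, 3 reached 5 CPM in maDC and 15 in diffDC, and their median log2 ratio was 3.80. With genes whose mean reached 5 CPM alone, 13 stroma markers were higher and 0 lower, beside 1998 and 1748 of 9957 genes. No marker of these lists was at 0 in either pool. Of 20 conventional dendritic cell markers, 17 were lower and 2 higher, and the sum fell from 14810 to 1174 CPM, with Clec10a the one marker at 0, in maDC. The dendritic cell integrin gene Itgax, which encodes CD11c, was read at an RPKM (CPM relative to gene length in kilobases) of 96.9 in maDC and 95.3 in diffDC, whereas the lineage factor Zbtb46 was at 44.0 and 1.52 RPKM. Markers of adipocytes and hepatocytes, cell types known for Lpl and Apoe, summed to 0.578 CPM in maDC and 0.0111 in diffDC over the 3 of 12 genes in the table. Of those 3, Apoa1 and Retn were at 0 in diffDC. The part of a changed mix of cells in the results below was not tested, and in such bulk RNA fewer cells of a type cannot be told apart from less RNA per cell.

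Apoe encodes the lipoprotein ligand that macrophages secrete. It is on chromosome 7 of GRCm38, from 19696109 to 19699188 on the minus strand (Entrez 11816), and is annotated as protein coding, as are the other 8 genes. It had 4551.26 reads in the maDC pool and 434404.42 in the diffDC pool. This was a rise of 64.6-fold (counting interval 62.8 to 66.6), a log2 ratio of 6.01. Per length, Apoe went from 51.7 to 3798 RPKM, from 1419th to 7th place among all genes of the table. It took 0.484% of all diffDC reads (Wilson 95% interval 0.482% to 0.485%), against 0.00658% of maDC reads (interval 0.00639% to 0.00677%). Among the 9944 genes of at least 5 CPM that had reads in maDC, its ratio was the 117th largest. In the authors' deposited table, the log2 ratio of Apoe is 6.45.

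**Figure D1:**
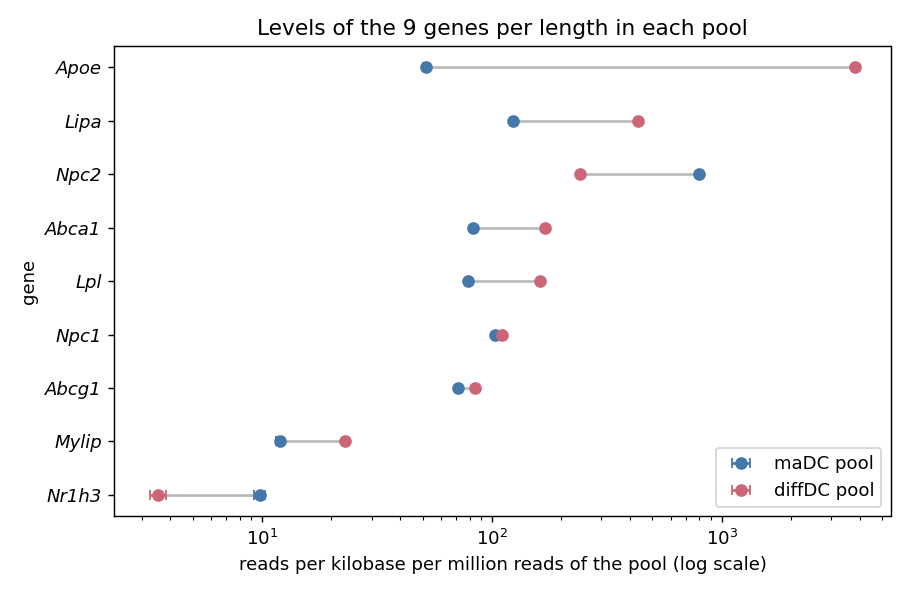
Level of each gene per length in the maDC and diffDC pools, in RPKM on a log scale, with 95% counting intervals where these exceed the point. Apoe spans 51.7 to 3798, Npc2 moves the other way from 796 to 243, and the 2 points of Npc1 (103 and 111) and of Abcg1 (71.0 and 84.5) lie close to each other.

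The genes nearest to Apoe in read numbers, by distance in the plane of log2 CPM over the 2 pools, were Mrc1, Sepp1 and F13a1, at distances of 0.81, 1.02 and 1.20 log2 units. Mrc1, the mannose receptor gene, had 2700 and 535230 reads. Sepp1, which encodes the selenium carrier selenoprotein P, had 2456 and 307401 reads, and F13a1, a coagulation factor subunit, had 3072 and 209479. With 2 pools, such likeness rests on 2 points and describes size and direction alone.

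Apoe lies in a cluster of apolipoprotein genes, and its neighbours did not share its level. Apoc1, the next gene on one side, had 12 reads in maDC and 33 in diffDC, or 0.401 and 0.850 RPKM, and its ratio of 1.86 had an interval from 0.937 to 3.96. With the authors' library factor Apoc1 was called higher, at a log2 ratio of 1.33. Apoc2, which encodes the cofactor of lipoprotein lipase, rose 8.81-fold (interval 7.80 to 9.98), from 282 to 3668.35 reads. Apoc4 had 1 read and 15 reads, a ratio of 10.2 with an interval from 1.56 to 428. On the other side, Tomm40, a subunit of the mitochondrial import pore, rose 2.34-fold (interval 2.17 to 2.53). Per length, Apoe stood 8.90 times above Apoc2 in maDC and 65.3 times above it in diffDC.

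**Figure D2:**
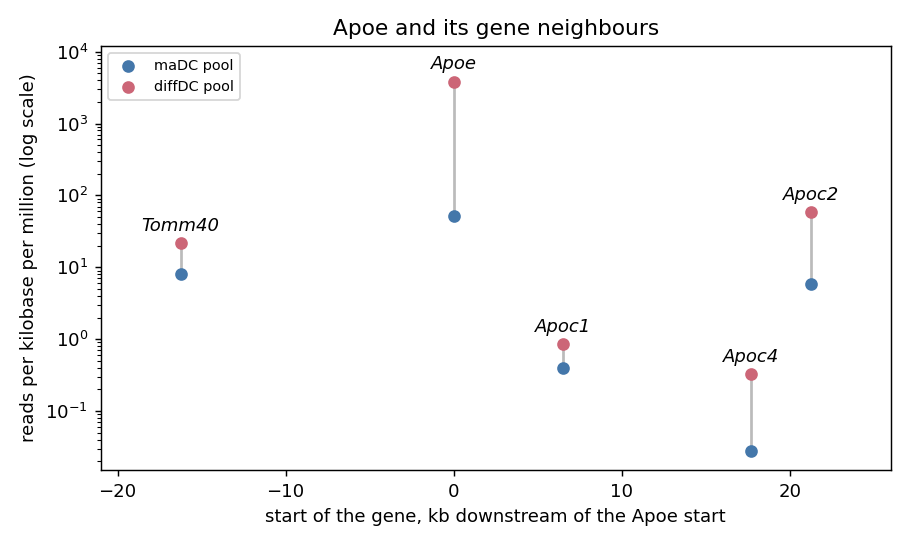
Level of Apoe and of 4 genes beside it, in RPKM on a log scale, against the distance of each gene's start downstream of the Apoe start in kb. All 5 genes are on the minus strand, and in diffDC Apoe at 3798 stands far above Apoc2 at 58.2, Tomm40 at 21.6, Apoc1 at 0.850 and Apoc4 at 0.322.

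The efflux transporters Abca1 and Abcg1 were read deeply in both pools. Abca1, which moves cholesterol to lipid-poor apolipoproteins, lies on chromosome 4 from 53030787 to 53159895 on the minus strand. Its reads numbered 58954.74 in maDC and 157781.25 in diffDC, a ratio of 1.81 (interval 1.80 to 1.83) that stayed under the 2-fold limit. Scaled by library totals alone or by the authors' library factor, Abca1 was called higher, at log2 ratios of 1.04 and 1.29 in place of 0.86. Abcg1, which exports cholesterol to mature HDL particles, lies on chromosome 17 from 31057675 to 31117988 on the plus strand. It had 28606 and 44165 reads, a ratio of 1.05 (interval 1.03 to 1.06), and was not called under any scaling tried. The ribosomal RNA gene Gm25447 lies within Abcg1 on the same strand, and the deposited reads of Abcg1 were whole numbers in both pools. Per length, scaled by pool totals and not by TMM, Abca1 was at 83.0 and 171 RPKM and Abcg1 at 71.0 and 84.5 RPKM. The level of Abca1 was thus 1.17 times that of Abcg1 in maDC and 2.03 times in diffDC. That change of 1.73-fold (interval 1.70 to 1.76) between the transporters does not depend on the library scaling.

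The start of Abca1 is known to hold an LXR site, a direct repeat of half-sites spaced by 4 bases (DR4). The 250 bases before the start are shown for Abca1, Apoe and Mylip, the LXR targets among the 9 genes that have a window in the RefSeq promoter table (GRCm38.p6). Entries were found for 6 of the 9 genes, the others being Lipa, Npc2 and Nr1h3. Each run is read 5′ to 3′ on the strand of the gene, and capitals mark a motif match. The motifs searched on both strands were the DR4 cores GGTCANNNNNGGTCA, GGTCANNNNNGGTTA, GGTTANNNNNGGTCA and GGTTANNNNNGGTTA, and the E-box CACGTG, and the matches did not overlap.
Abca1, chr4:53159896-53160145, minus strand: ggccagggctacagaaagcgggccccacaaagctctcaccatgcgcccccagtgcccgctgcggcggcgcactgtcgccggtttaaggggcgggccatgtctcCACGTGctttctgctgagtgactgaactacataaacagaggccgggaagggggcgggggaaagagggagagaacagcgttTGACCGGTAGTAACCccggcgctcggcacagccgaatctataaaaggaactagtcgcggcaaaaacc
Apoe, chr7:19699189-19699438, minus strand: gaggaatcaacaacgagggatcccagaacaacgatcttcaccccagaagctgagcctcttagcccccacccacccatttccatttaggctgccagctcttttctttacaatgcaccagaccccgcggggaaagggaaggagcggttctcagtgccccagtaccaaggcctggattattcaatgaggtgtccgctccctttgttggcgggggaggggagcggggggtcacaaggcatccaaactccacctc
Mylip, chr13:45389492-45389741, plus strand: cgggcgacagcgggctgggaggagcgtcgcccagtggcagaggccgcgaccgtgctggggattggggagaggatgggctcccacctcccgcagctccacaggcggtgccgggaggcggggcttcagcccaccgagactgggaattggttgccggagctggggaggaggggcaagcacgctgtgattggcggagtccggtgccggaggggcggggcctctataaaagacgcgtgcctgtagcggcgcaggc
The DR4 core in the Abca1 window covers bases -67 to -53 from the start and reads as a motif on the opposite strand, and the E-box covers bases -147 to -142. A DR4 core was found in 63 of 32851 windows of this length (0.192%) and an E-box in 1978 (6.02%). Of the 6 genes with a window, 1 held a DR4 core and 1 an E-box, Abca1 in both cases. For the windows of Apoe and Mylip this says only that these letters are not in these 250 bases. The match describes sequence, and neither binding nor its part in the ratio of Abca1 was measured.

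Nr1h3 encodes LXR alpha, a receptor that drives these targets, as does LXR beta. It lies on chromosome 2 from 91184061 to 91202834 on the minus strand and was the lowest of the 9 genes per length in both pools, at 9.78 RPKM in maDC and 3.54 in diffDC. A noncoding gene, Gm13783, overlaps it on the same strand, and the deposited reads of Nr1h3 were whole in both pools. With 1208 and 567 reads, it fell 3.15-fold (interval 2.85 to 3.48), a log2 ratio of -1.65. In the authors' deposited table the log2 ratio is -1.22. The level of Nr1h2, which encodes LXR beta, was 6.05 times that of Nr1h3 in maDC and 9.13 times in diffDC. Nr1h2 itself fell 2.09-fold (interval 2.02 to 2.16), from 8242.04 to 5836.87 reads, a call that ended with library totals and with the authors' library factor, under which the log2 ratio was -0.63. Of the retinoid X partners, Rxra had a log2 ratio of 0.56 and Rxrb of -0.33, and these were not called.

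On chromosome 13 from 45389742 to 45412022, Mylip had 2462.28 reads in maDC and 6185.06 in diffDC. Its ratio of 1.70 (interval 1.62 to 1.78) was not called, although with the authors' library factor it was, at a log2 ratio of 1.20. Its level went from 11.9 to 23.1 RPKM. The transcripts nearest to Mylip in read numbers were Ech1, Scap and Ccpg1, with distances of 0.0080, 0.027 and 0.038 log2 units. Scap, the escort of the sterol-sensing SREBP factors, had 2482 and 6291 reads.

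Lpl encodes lipoprotein lipase, which splits the triglycerides of lipoproteins at the cell surface. It lies on chromosome 8 from 68880491 to 68907448 on the plus strand and had 22046.08 and 59096.87 reads, or 78.7 and 162 RPKM. Its ratio of 1.82 (interval 1.79 to 1.84) was not called, and with library totals or the authors' library factor it was, at log2 ratios of 1.05 and 1.30. The ratios of Lpl and Abca1 differed by 0.002 log2 units (interval -0.024 to 0.028), the only one of 36 pairs among the 9 genes whose counting interval included 0. The nearest genes to Lpl in read numbers were Esyt1, Picalm and Ptbp3, with distances of 0.011, 0.020 and 0.087 log2 units.

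**Figure D3:**
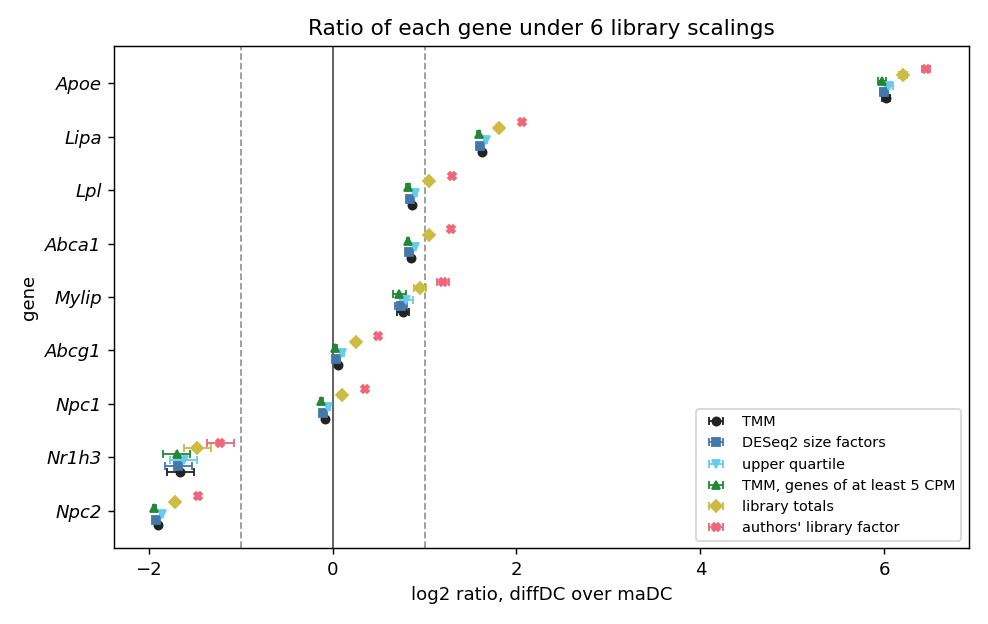
Log2 ratio of diffDC over maDC for each gene under 6 library scalings, with 95% counting intervals and dashed lines at the 2-fold limits. Apoe and Lipa stay beyond the upper limit and Npc2 and Nr1h3 beyond the lower one under all 6, while Lpl, Abca1 and Mylip lie on either side of the upper limit and Npc1 on either side of 0.

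The lysosomal genes went in different directions. Lipa, on chromosome 19 from 34492318 to 34527474, rose 3.09-fold (interval 3.05 to 3.13), from 25364 reads in maDC to 115703 in diffDC. Its level went from 123 to 434 RPKM, the second highest of the 9 genes in both pools. In the authors' deposited table its log2 ratio is 2.06, against 1.63 here. Npc2, on chromosome 12 from 84754562 to 84773152, fell 3.72-fold (interval 3.69 to 3.76), from 179640.47 to 71254.5 reads, with a log2 ratio of -1.46 in the authors' deposited table. At 796 RPKM it was the highest of the 9 genes in maDC and 69th in the whole table, and at 243 RPKM it was the third of the 9 in diffDC.

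Npc1, on chromosome 18 from 12189692 to 12236400, had 36922 and 51527 reads and levels of 103 and 111 RPKM. Its log2 ratio of -0.08 turned to 0.10 with library totals and to 0.35 with the authors' library factor, and it was not called under any of them. Npc1 overlaps the gene Rmc1 on the opposite strand, and no source used here says whether reads were counted by strand. The level of Npc2 was 7.73 times that of Npc1 in maDC and 2.20 times in diffDC, a change of 3.52-fold (interval 3.46 to 3.57) that no library scaling alters. Relative to Npc1, Lipa went from 1.20 to 3.92 times its level, a change of 3.27-fold (interval 3.21 to 3.33).

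Among the 36 pairs, 22 differed in their ratios by at least 2-fold. Apoe differed from each of the others, by 20.9-fold from Lipa (interval 20.3 to 21.6) up to 241-fold from Npc2 (interval 233 to 248). Nr1h3 and Npc2, both lower, differed from each other by 1.18-fold (interval 1.07 to 1.31). In maDC the order of levels per length was Npc2, Lipa, Npc1, Abca1, Lpl, Abcg1, Apoe, Mylip and Nr1h3. In diffDC it was Apoe, Lipa, Npc2, Abca1, Lpl, Npc1, Abcg1, Mylip and Nr1h3. The counting intervals of neighbours in either order did not overlap, but the spread between libraries is unknown, so neighbours as close as Abca1 and Lpl (83.0 and 78.7 RPKM in maDC) cannot be ranked beyond these pools.

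**Figure D4:**
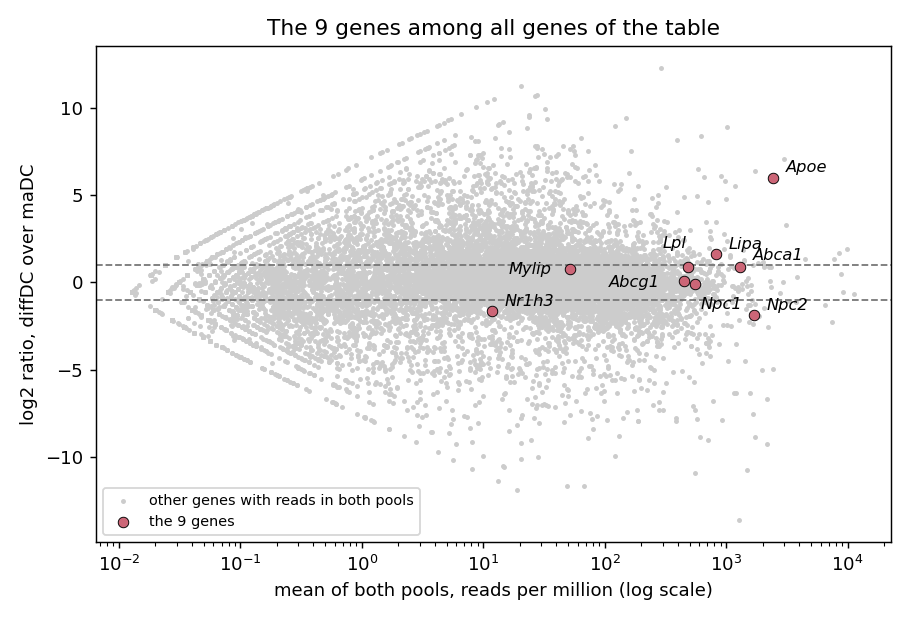
Log2 ratio of diffDC over maDC against the mean of both pools in CPM, on a log scale, for genes with reads in both pools (grey) and the 9 genes (red), with dashed lines at the 2-fold limits. Apoe, at 6.01, is far above the limit, while Abca1, Lpl, Mylip, Abcg1 and Npc1 lie between the limits in the bulk of genes.

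Other LXR targets and receptors were read from a list of 20 measured genes that holds 5 of the 9. Without these 5, the list had 5 of 15 genes higher and 1 lower, beside 23.3% and 20.9% of all genes. These shares of all genes, for TMM factors and the 2-fold limit, are also the background of the lists that follow. The median with the 5 included, Apoe among them, was 0.66, beside 0.03 over all genes of the table. It was not computed without them. Besides Apoc2 and Apoc4, the genes that rose were Fasn, the fatty acid synthase, by 4.06-fold (interval 3.90 to 4.23), the phosphodiesterase-like gene Smpdl3a by 3.77-fold (interval 3.65 to 3.90) and the phospholipid remodelling enzyme gene Lpcat3 by 2.55-fold (interval 2.37 to 2.76). Pltp, which transfers phospholipid between lipoproteins, had a log2 ratio of 0.95, and Srebf1 of 0.38, Scd2 of 0.06, Arl4c of -0.69 and Scd1 of -0.75, and these were not called. Nr1h5 had 4 and 2 reads. Over all 20 genes of the list, the 5 included, 6 were higher and 2 lower with TMM factors. With the authors' library factor, 10 of the 20 were higher and 1 lower, beside 32.2% and 15.7% of all genes.

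Among the 13 measured transporters of the ABCA and ABCG families, 7 were higher and 1 lower (median 2.02), beside 23.3% and 20.9% of all genes. Neither Abca1 nor Abcg1 was among those called. With genes whose mean reached 5 CPM alone, 4 transporters were higher and 0 lower, beside 1998 and 1748 of 9957 genes. Of the transporters whose mean reached 5 CPM, Abca9, Abcg3 and Abcg2 rose most, from 14, 29 and 25 reads in maDC to 4759, 6313 and 1897 in diffDC. Per length they reached 8.18, 23.8 and 8.48 RPKM in diffDC, below the 171 RPKM of Abca1 and the 84.5 of Abcg1. In the same pool, 15 of 22 stroma markers were higher, and their part in these rises was not tested.

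Receptors for lipoproteins split. Of 18 measured, 8 were higher and 5 lower, and the median was 0.84. Lrp1, a receptor for lipoproteins that carry apolipoprotein E, rose 9.68-fold (interval 9.57 to 9.78), and the scavenger receptor genes Stab1 and Msr1 rose 25.0-fold and 5.44-fold. Lrp8, which encodes apolipoprotein E receptor 2, fell 49.4-fold (interval 46.0 to 53.1), and Olr1, a receptor for oxidised LDL, fell 25.7-fold.

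Partners of lipoprotein lipase and related lipases, 12 genes besides Lpl, were higher in 4 cases and lower in 2. Lmf1 and Lmf2, which encode lipase maturation factors, rose 2.72-fold and 2.29-fold. Sdc1, a heparan sulfate proteoglycan, and Lipe, the hormone-sensitive lipase, fell 4.72-fold and 4.59-fold. The angiopoietin-like inhibitor of Lpl, Angptl4, rose from 13 to 242 reads, 12.6-fold (interval 7.23 to 24.0), at a level of 1.42 RPKM in diffDC.

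Lysosomal lipid genes other than Lipa, Npc1 and Npc2 were higher in 9 of 26 cases and lower in 0, and the median of all 29 was 0.39. The largest rises were those of Ppt1, a thioesterase, at 6.42-fold, and of Hexa, a hexosaminidase subunit, at 5.52-fold. Npc2 was the one gene of the 29 that fell. Of 15 genes of ester storage and lipid droplets, 2 were higher and 7 lower, and the median was -0.49. Nceh1, which hydrolyses cholesterol esters outside the lysosome, rose 2.35-fold (interval 2.30 to 2.40), while the log2 ratio of Soat1, the enzyme that makes these esters, was 0.29. Dgat2 and Mgll, which make and break down acylglycerols, fell 8.80-fold and 5.25-fold.

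In the sterol-sensing SREBP2 group, 2 of 22 genes were higher and 8 lower, and the median was -0.30. The authors' library factor turned this median to 0.14 and gave 5 higher and 7 lower, beside 32.2% and 15.7% of all genes. Mvd and Idi1, enzymes of cholesterol synthesis, fell 9.38-fold and 8.26-fold, and Insig1, which holds SREBP in the endoplasmic reticulum, fell 3.18-fold. Dhcr7, a late enzyme of the pathway, and Mbtps2, a protease that releases SREBP, rose 5.28-fold and 2.90-fold. Srebf2 itself had a log2 ratio of -0.66 and was not called.

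**Figure D5:**
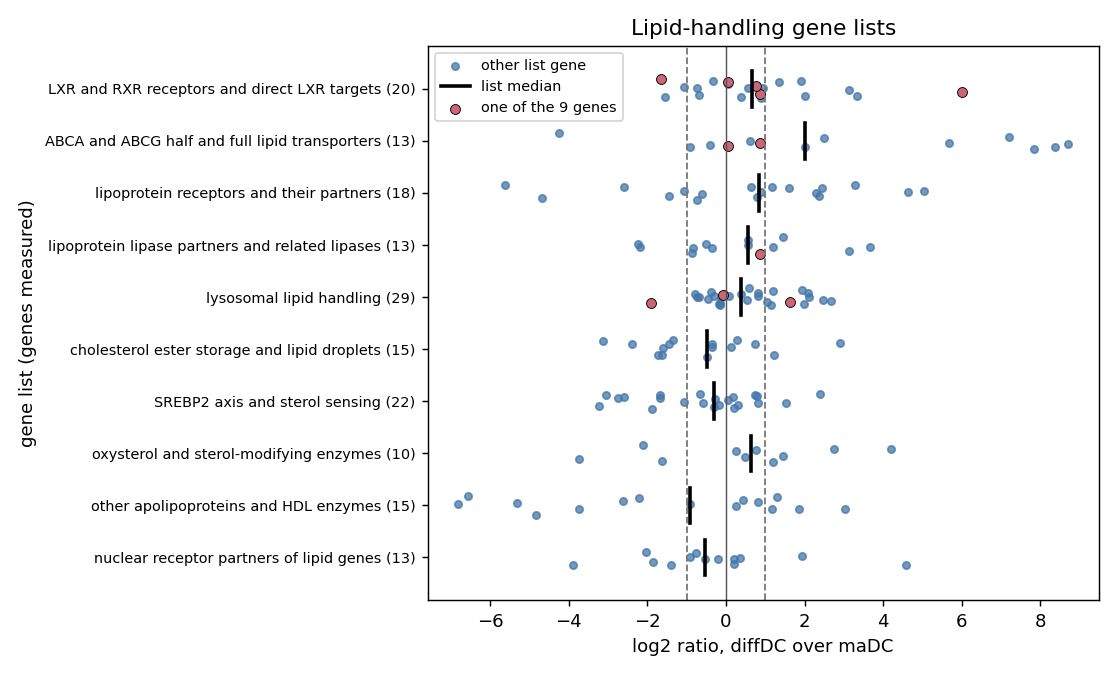
Log2 ratio of diffDC over maDC for each gene of 10 lipid-handling lists, with the number of genes measured in brackets, the list median as a bar and the 2-fold limits as dashed lines. Red points are members of the 9 genes, and Apoe at 6.01 is the largest ratio of the LXR list. All 10 lists spread to both sides of 0.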

How the data were processed

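RNA sequencing was described for 6 libraries, 3 of maDC and 3 of diffDC. The authors deposited 1 pooled read number per gene and group, read here to hold expected counts, since 58.2% of maDC and 57.5% of diffDC values were whole within 0.005. Apoe, Abca1, Lpl, Npc2 and Mylip carried decimals, so shared reads could have been divided. How libraries were pooled, and the aligner and counter, are not given in the sources used here. The submitters' processing notes name GRCm38.p4 and mm10 as genome builds. The deposited log2 ratio differed from that of the reads by a library factor of 0.127 in all 14572 genes compared, within 0.001.

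Ratios were scaled with TMM (edgeR 4.0.16, R 4.3.3), a log2 library ratio of 0.563. Intervals are 95% Clopper-Pearson on rounded reads, and 0.5 stood for 0 reads. The procedure was checked on simulated data with counting noise alone and few changed genes, balanced between rises and falls. Such data hold no spread between libraries, so the check cannot decide between the library factors or vouch for the calls here. RPKM was computed from the length deposited for each gene. Both CPM and RPKM were scaled by library totals, so their change between the pools differs from the TMM-scaled ratio. Alternatives were library totals (0.377), the authors' factor, DESeq2 1.42.0 size factors (0.585), upper-quartile factors (0.525), only genes whose mean reached 5 CPM, and a 4-fold limit. Intervals for pairs of genes used the normal approximation on log counts. Coordinates came from GENCODE M21 on GRCm38 and promoters from RefSeq. Other steps ran in Python 3.11.15 (scipy 1.17.1, numpy 2.4.6, pandas 2.3.3), with plots from matplotlib 3.10.9.

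The 9 genes and the 15 lists, holding 268 genes of which 237 were measured, were chosen with earlier results of these data known. Named genes were the 9 members, all of the LXR list, and from the other lists up to 3 rises and 2 falls by size among called genes whose mean reached 5 CPM. For Apoe, Lpl and Mylip, the 3 nearest genes in read numbers were added, and for Apoe its neighbours. Soat1, Insig1, Srebf2, Angptl4, Itgax, Zbtb46, Apoa1, Retn and Cyp27a1 were named after their values were seen, as were the motifs searched. The remaining genes taken by the rule are given in the closing section, except 1 that is not reported here.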

Additional observations from a re-analysis of the deposited data

How the results depend on the processing

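Apoe and Lipa stayed higher and Npc2 and Nr1h3 lower at the 2-fold limit under all 5 other library scalings or filters, with log2 ratios from 5.97 to 6.45, 1.59 to 2.06, -1.94 to -1.46 and -1.69 to -1.22. With library totals, Abca1 (1.04) and Lpl (1.05) were called and Npc1 turned to 0.10. With the authors' library factor, Abca1 (1.29), Lpl (1.30) and Mylip (1.20) were called and Npc1 turned to 0.35. The number of the 9 genes called higher was 2, and 4 and 5 under these scalings. The larger numbers follow from the factor itself, which adds the same amount to every gene. A 4-fold limit left 1 of the 9 genes higher and 0 lower, and 1982 of all genes (13.0%) higher and 1845 (12.1%) lower. Over all lists it left 53 entries higher and 46 lower in place of 80 and 72. These totals run over 15 lists with 276 entries, measured or not, and include the cell type markers. A gene in more than 1 list counts each time, so they do not describe the lipid genes alone. With genes of at least 5 CPM alone, 1998 of 9957 genes were higher and 1748 lower, and 47 list entries were lower. This setting both counted fewer genes and estimated the TMM factor anew (a log2 library ratio of 0.602 in place of 0.563). Size factors from DESeq2 and upper-quartile factors moved no call of the 9 genes and none of the counts of all genes or of list genes by over 1.5 times. With 1 in place of 0 reads, run for the counts of all genes alone, these stayed at 3562 and 3201. Levels per length with the longest coding transcript of GENCODE M21, an alternative chosen after seeing the data, were 46.7 and 3434 RPKM for Apoe and 8.93 and 3.23 for Nr1h3. Leaving out a library was not run, since the table has no value for single libraries. No paired analysis was possible because each group has 1 pooled column. Counting precision was lowest for Nr1h3 among the 9 genes, and the spread between libraries is unknown for all.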

Other observations

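Of 10 enzymes and carriers that make or move oxysterols and sterols, 3 were higher, 3 lower and 4 not called, shares near the 23.3% and 20.9% of all genes. Ch25h, which makes 25-hydroxycholesterol, an oxysterol, rose 18.2-fold (counting interval 15.4 to 21.8), from 140 reads in maDC to 3773 in diffDC. Ebp, a sterol isomerase, rose 2.75-fold. The sterol transporter genes Gramd1b and Gramd1a went apart, 2.29-fold higher and 3.11-fold lower. Cyp27a1, which makes 27-hydroxycholesterol, had a log2 ratio of 0.76 and was not called, but was at 1.20 with the authors' library factor.

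Of 15 other apolipoproteins and HDL enzymes, 4 were higher and 7 lower. Saa3, an acute-phase apolipoprotein, fell 112-fold (interval 106 to 118), from 105886 to 1396 reads, and Apol7c fell 40.0-fold. The paraoxonase genes Pon3 and Pon2 rose 3.60-fold and 2.48-fold. Of 13 nuclear receptors and cofactors, 2 were higher and 4 lower. Nr4a1 rose 23.9-fold and Pparg 3.80-fold, while Ppard fell 4.07-fold and the cofactor gene Nrip1 3.63-fold.

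Among markers of cell types, Mrc1, C1qa and C1qc rose 134-fold, 91.4-fold and 69.1-fold, and Marco fell 6.54-fold. Col3a1, Cxcl12 and Col6a1 of the stroma list rose 697-fold, 205-fold and 188-fold from 26, 18 and 47 reads. Il12b and Ccr7 of the dendritic cell list fell 1759-fold and 81.9-fold. Of 9 endothelial markers, 7 were lower and 1 higher, with Kdr falling 4.36-fold and Eng 2.02-fold. Only 4 of these 9 reached 5 CPM in maDC and 2 in diffDC. With genes whose mean reached 5 CPM alone, 2 endothelial markers were lower and 0 higher. The call of Eng ended with library totals, upper-quartile factors and the authors' library factor, the last giving a log2 ratio of -0.58.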
